A study of Mus musculus with 12 samples.

Results

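The genes followed here clear, sense or break down noradrenaline: Slc6a2, Adrb1, Adra2a, Maoa, Maob and Slc22a3, which are 6 of the 21899 genes measured. They were chosen by name from the gene table, with Slc6a2 selected on its measured level, which fell in steps over the groups. The Slc6a2 values are therefore a description and carry no test. The study grew 4T1-LUC mouse mammary tumour cells under the skin of BALB/c mice, 4 to 6 weeks old, and sequenced total RNA of the tumours in 12 libraries, 3 a group. The combination group received curcumin at 100 mg/kg in corn oil by gavage and swam for 30 min after it. The swimming group received corn oil and the same swimming, the curcumin group received curcumin at 100 mg/kg without swimming, and the control group received corn oil alone. Every group carried the tumour, and gavage was 200 µL each afternoon. All tumours derive from a single cell line, and the labels speak of 30 mice but also of 5 groups of 5. The sex of the mice, and whether each library came from its own tumour or from a pool, are not given in the sources used here, and each p-value reflects library-to-library spread alone, which may be technical.

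Noradrenaline is the main transmitter of sympathetic nerves, which run along vessels into many tumours. Released noradrenaline acts on alpha and beta adrenergic receptors, which signal through G proteins, the beta receptors by raising cyclic AMP. The signal ends when the transmitter is taken back into the nerve by the noradrenaline transporter, taken into other cells by low-affinity carriers, and broken down by enzymes such as the monoamine oxidases.

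Library totals ran from 15069348 to 17278826 counts. Levels are in CPM, the read count scaled to a common library size and for composition, and levels of different genes are compared in FPKM, which also divides by gene length. Epithelial markers of the tumour cells were abundant in every group, with Epcam at 330–333 CPM in combination, 279–302 in swimming, 254–271 in curcumin and 316–368 in control libraries. The groups differed in spread: the biological coefficient of variation was 6.47% in combination, 16.4% in swimming, 12.4% in curcumin and 26.6% in control. Control 2 stood apart from its group in tissue markers: 7 fibroblast markers summed to 898 CPM there, against 2863 and 3390 CPM in the other control libraries, and 8 skeletal muscle markers to 42.1 CPM, against 249 and 507 CPM. In these tumour pieces fewer cells of a type and less RNA per cell cannot be told apart.

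Slc6a2 (ENSMUSG00000055368, chromosome 8, 93686707 to 93728295 in the deposited table, whose build the sources state as mm9 and as GRCm39) encodes the noradrenaline transporter, which returns the transmitter to sympathetic terminals. Combination libraries 1, 2 and 3 held 2, 0 and 0 Slc6a2 reads. Swimming libraries held 6, 2 and 7 reads, curcumin libraries 16, 12 and 21, and control libraries 75, 82 and 57. The groups did not overlap in CPM for any of the 6 pairs, although combination 1 and swimming 2 had the same count of 2 reads. The order from low to high was therefore combination, swimming, curcumin and control. Of all tested genes, the share lower without overlap was 15.8% in combination against control, 7.24% in swimming against control, 7.22% in curcumin against control, 18.5% in combination against curcumin, 20.2% in combination against swimming and 15.3% in swimming against curcumin.

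On the CPM scale Slc6a2 averaged 0.0404 ± 0.0699 in combination, 0.324 ± 0.167 in swimming, 1.03 ± 0.289 in curcumin and 4.24 ± 0.807 in control (SD, n = 3 each). Against the 214 reads summed over the control libraries, curcumin had 49, a level 4.03-fold lower than control (95% exact interval 2.95 to 5.62). Swimming had 15, which was 13.4-fold lower than control (7.94 to 24.3). Combination had 2, which was 105-fold lower than control (28.7 to 873). These intervals cover counting error only, and the 3 ratios share the same control libraries. The fitted log2 fold changes against control were -6.45 for combination, -3.67 for swimming and -2.03 for curcumin. These fits include all 3 libraries of each group, and the combination value rests on the 2 reads of combination 1, without which the group has 0 reads.

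Differences between the treated groups rested on fewer reads. Combination was 26.0-fold lower than curcumin (6.84 to 221) and 7.85-fold lower than swimming (1.82 to 70.7). Swimming was 3.32-fold lower than curcumin (1.83 to 6.37). A library with 3 expected reads would stand at 0.174 to 0.199 CPM, and swimming 2 and all combination libraries were below that level. At this depth the transcript was not detectable in combination 2 and 3.

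**Figure D1:**
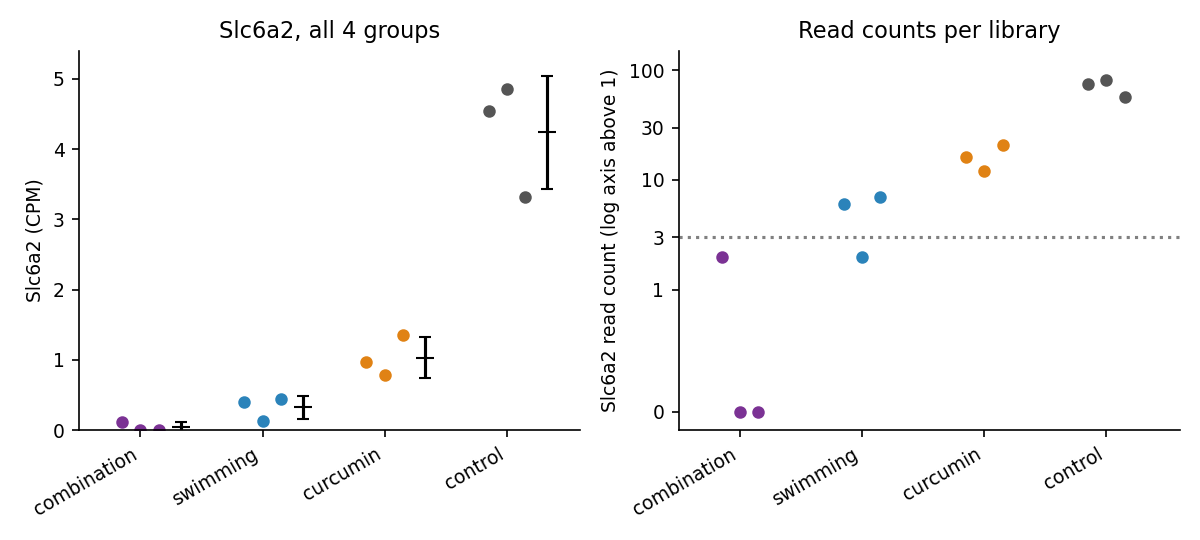
Slc6a2 in each of the 12 libraries (points). Left, CPM with mean ± SD to the right of the points; right, read counts on an axis that is logarithmic above 1, with a dotted line at 3 reads. The control libraries sit at 57 to 82 reads and the combination libraries at 0 to 2.

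Most markers of the sympathetic neurons that normally carry the transporter were scarce in all groups. Th, the rate-limiting enzyme of noradrenaline synthesis, and Snap25, a synaptic fusion protein, had 0 reads in all 12 libraries. A count of 0 allows up to 3 reads a library, or 0.199 CPM in the smallest library. Dbh, the enzyme that turns dopamine into noradrenaline, had 2 reads in combination, 0 in swimming, 4 in curcumin and 0 in control. Other listed neuron genes had reads in every group: Phox2a had 13 in combination, 2 in swimming, 6 in curcumin and 14 in control, Stmn2 had 17, 5, 22 and 15 in that order, Tubb3 had 49, 20, 23 and 22, and Uchl1 had 29, 23, 25 and 12. Summed over 14 sympathetic neuron markers, levels were 33.1–39.2 CPM in combination, 11.8–12.9 in swimming, 19.5–32.2 in curcumin and 10.9–23.3 in control. Most of that sum was Ngfr, a neurotrophin receptor that other cells also make. Ngfr alone had 1607 reads in combination, 507 in swimming, 1077 in curcumin and 729 in control. The sum was highest in the combination mainly through this gene.

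Chga, which encodes chromogranin A of secretory granules, had 1, 1 and 3 reads in combination libraries, 1, 1 and 2 in swimming, 1, 30 and 18 in curcumin and 8, 17 and 25 in control. The groups that swam were low in Chga as in Slc6a2, while curcumin 2 and 3 exceeded 2 of the 3 control libraries or more. Macrophages were also followed, since nerve-associated macrophages can take up noradrenaline through this transporter. Their 10 markers summed to 910–912 CPM in combination, 691–1164 in swimming, 1109–1689 in curcumin and 896–1909 in control. The combination libraries lay below all curcumin libraries in that sum, and the swimming and combination ranges overlapped that of control. The part that any cell type had in the Slc6a2 values was not tested.

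The genes whose levels over the 12 libraries were most like Slc6a2 were Ttll3, Psd, Prdm11, Zfyve21, Dnajb2, Hmox2, Plcd3 and Marf1. Their Pearson correlation with Slc6a2 in log2 CPM was 0.91 to 0.94, the highest among 12458 genes of at least 1 CPM. The libraries fall into 4 groups of 3, so these values mainly describe a like order of groups and carry no test. The changes were much smaller than that of Slc6a2: Psd averaged 22.2 CPM in combination, 26.3 in swimming, 29.2 in curcumin and 41.6 in control. Prdm11 averaged 14.7 CPM in combination, 20.6 in swimming, 23.4 in curcumin and 29.1 in control. The opposite order was clearest for Med7, Gadd45g, Ptgfrn and Cldn23, with correlations of -0.95 to -0.92. Cldn23 averaged 5.44 CPM in combination, 4.56 in swimming, 3.65 in curcumin and 2.44 in control. The other members were less like Slc6a2, with 0.36 for Maoa, 0.23 for Adrb1, -0.59 for Adra2a and -0.73 for Maob.

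Proximal promoters are shown because the beta receptor signal reaches genes through cyclic AMP and its response element, and because the members' levels between groups are described next. Promoters were found for 4 of the 6 members, Adrb1, Adra2a, Maoa and Slc22a3, in RefSeq on GRCm38.p6, from 250 bases before to 50 after the gene start. Capitals mark TGACG, the core of a cyclic AMP response element, searched on both strands.
Adrb1: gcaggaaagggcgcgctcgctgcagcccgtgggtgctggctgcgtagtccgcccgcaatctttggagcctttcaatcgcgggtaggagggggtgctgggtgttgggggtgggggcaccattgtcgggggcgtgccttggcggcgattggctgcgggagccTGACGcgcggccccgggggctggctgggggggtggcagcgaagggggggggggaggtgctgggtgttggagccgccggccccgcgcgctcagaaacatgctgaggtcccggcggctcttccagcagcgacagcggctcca
Adra2a: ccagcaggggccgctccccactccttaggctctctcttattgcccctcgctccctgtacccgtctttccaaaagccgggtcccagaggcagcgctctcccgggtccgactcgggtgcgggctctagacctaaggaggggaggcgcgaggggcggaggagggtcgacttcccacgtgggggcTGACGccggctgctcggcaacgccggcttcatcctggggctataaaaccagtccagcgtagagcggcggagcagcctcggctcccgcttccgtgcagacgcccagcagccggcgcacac
Maoa: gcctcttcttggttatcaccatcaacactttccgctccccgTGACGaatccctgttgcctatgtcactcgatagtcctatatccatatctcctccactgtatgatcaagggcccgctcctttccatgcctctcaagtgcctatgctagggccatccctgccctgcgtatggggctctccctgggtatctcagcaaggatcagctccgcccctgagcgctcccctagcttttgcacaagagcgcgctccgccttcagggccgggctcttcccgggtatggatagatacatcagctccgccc
Slc22a3: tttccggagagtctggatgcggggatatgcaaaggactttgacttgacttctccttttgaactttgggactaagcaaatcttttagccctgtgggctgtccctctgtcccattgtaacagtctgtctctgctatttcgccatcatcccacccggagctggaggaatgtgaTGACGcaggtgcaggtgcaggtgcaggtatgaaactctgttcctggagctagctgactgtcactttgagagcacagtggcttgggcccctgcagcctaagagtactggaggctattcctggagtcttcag
They lie at chr19:56721867-56722166 (plus strand) for Adrb1, chr19:54045009-54045308 (plus strand) for Adra2a, chrX:16619448-16619747 (plus strand) for Maoa and chr17:12507655-12507954 (minus strand) for Slc22a3. These positions are on GRCm38.p6 and do not share a frame with the gene positions given from the deposited table. All 4 promoters hold TGACG once, on the strand of the gene. It begins 90 bases before the gene start in Adrb1, 69 in Adra2a, 209 in Maoa and 80 in Slc22a3. Of 32851 promoters of this length in the same table, 20.8% hold it. That share was not matched for GC content, and enrichment in the members was not tested. The E-box CACGTG occurred in Adra2a, beginning 80 bases before the start and not overlapping TGACG, and in 7.15% of all promoters. GC content was 72.3% in Adrb1, 68.7% in Adra2a, 57.7% in Maoa and 52% in Slc22a3. A match is a description of letters and not of a factor bound there.

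Adra2a (ENSMUSG00000033717, chromosome 19, 54032582 to 54037413) encodes the alpha-2A receptor, which couples to inhibitory G proteins and on nerve endings restrains noradrenaline release. Combination libraries held 18.1, 17.3 and 18.1 CPM. Swimming libraries held 9.77, 12.6 and 3.20 CPM, curcumin libraries 7.77, 19.1 and 10.2 CPM, and control libraries 8.72, 4.56 and 7.29 CPM. The combination libraries lay close together and above every swimming and control library, while curcumin 2 lay above them. Combination against control gave a log2 fold change of 1.38 ± 0.45 (adjusted p = 0.0904 by edgeR), which did not pass the threshold of 0.05.

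The Adra2a change against control was 0.31 ± 0.45 in swimming (adjusted p = 0.844 by edgeR) and 0.85 ± 0.45 in curcumin (0.507). The combination passed with DESeq2 (adjusted p = 0.0135), in a fit of combination and control alone (0.046) and without swimming 3 (0.0332). It passed in none of the rest of the 20 alternatives. Swimming 3 was the lowest of the 12 libraries for this gene, followed by control 2. The 7 fibroblast markers summed to 1369 CPM in swimming 3 and 898 in control 2. In the libraries highest for Adra2a they summed to 3902–4146 CPM in combination and 3962 in curcumin 2. Between these the order was not kept: swimming 2 had 2324 CPM of the markers and 12.6 of Adra2a, and control 3 had 3390 and 7.29. The part of fibroblasts in the Adra2a values was not tested. By FPKM, Adra2a was more abundant than Adrb1 in each group, at 3.66 ± 0.132 in combination, 1.71 ± 0.961 in swimming, 2.61 ± 1.24 in curcumin and 1.44 ± 0.462 in control.

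Adrb1 (ENSMUSG00000035283, chromosome 19, 56710631 to 56721545) encodes the beta-1 receptor, which raises cyclic AMP. It was near the limit of detection, with 4, 4 and 9 reads in combination libraries, 18, 9 and 24 in swimming, 10, 11 and 8 in curcumin and 5, 11 and 20 in control. The control libraries overlapped every other group. Against control the log2 fold change was -1.005 ± 0.60 in combination (adjusted p = 0.3 by edgeR), 0.63 ± 0.54 in swimming (0.675) and -0.21 ± 0.56 in curcumin (0.909).

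The clearest separation for Adrb1 was combination against swimming, without overlap in CPM, where 20.2% of all tested genes were lower without overlap. Combination 3 and swimming 2 had the same read count, and stood at 0.569 and 0.595 CPM only through library scaling. The change in combination against swimming was -1.64 ± 0.59 (adjusted p = 0.0979 by edgeR) and did not pass, except when control 2 and swimming 2 were both left out (-1.93, adjusted p = 0.0356). Adrb1 stood at 0.103 ± 0.0559 FPKM in combination, 0.319 ± 0.137 in swimming, 0.185 ± 0.0302 in curcumin and 0.212 ± 0.135 in control.

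**Figure D2:**
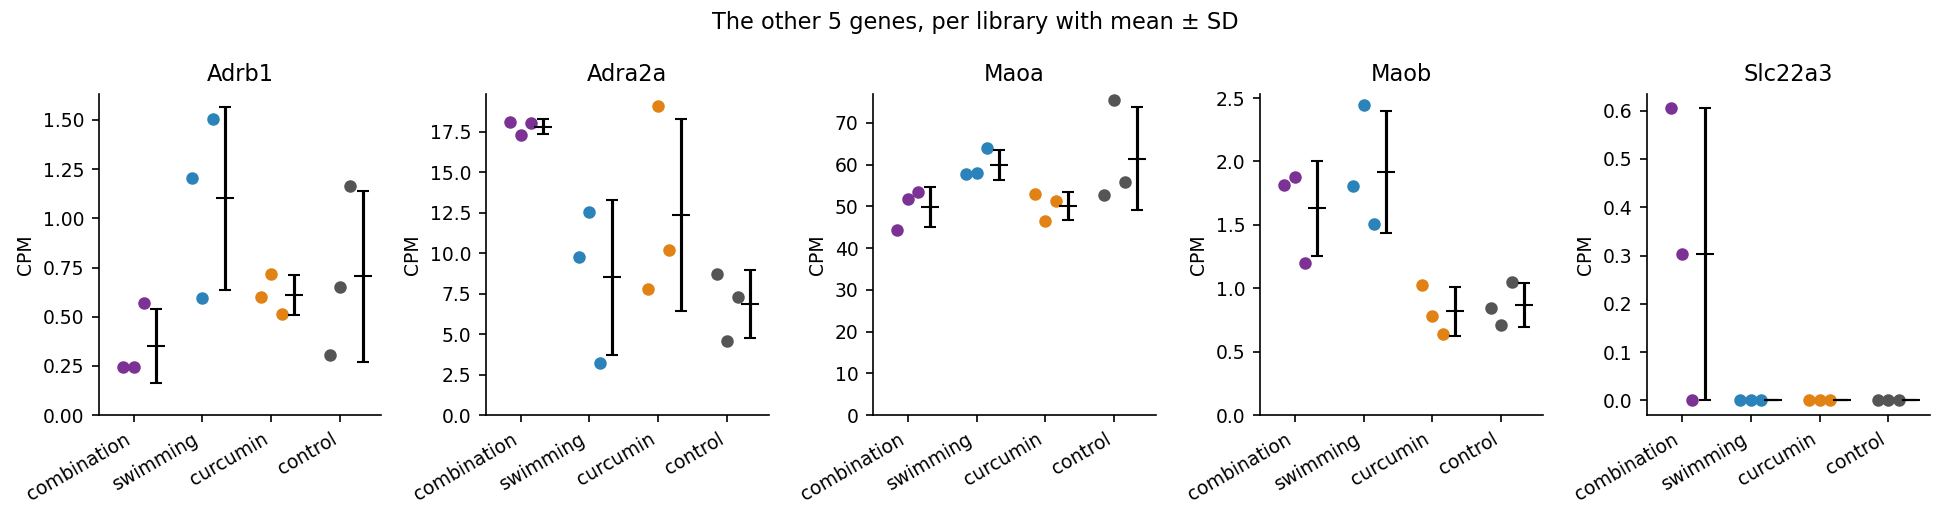
Adrb1, Adra2a, Maoa, Maob and Slc22a3 in CPM in each library (points), with mean ± SD beside them and a separate axis per gene. Adra2a is at 17.3 to 18.1 CPM in all combination libraries, Maob is higher in combination and swimming than in curcumin and control libraries, and Slc22a3 is above 0 in 2 combination libraries.

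Maoa (ENSMUSG00000025037, chromosome X, 16485937 to 16554057) encodes monoamine oxidase A, the mitochondrial enzyme that prefers noradrenaline and serotonin. It was the best measured of the 6 genes, at 44.4, 51.8 and 53.5 CPM in combination libraries, 57.7, 58.0 and 64.1 in swimming, 52.9, 46.4 and 51.2 in curcumin and 52.7, 75.5 and 55.9 in control. Control 2 was the highest library, and the swimming libraries lay above all combination and curcumin libraries. Against control the log2 fold change was -0.30 ± 0.13 in combination (adjusted p = 0.165 by edgeR), -0.03 ± 0.13 in swimming (0.949) and -0.29 ± 0.13 in curcumin (0.443). Swimming exceeded curcumin by 0.26 ± 0.13 (adjusted p = 0.27 by edgeR), which did not pass.

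Maob (ENSMUSG00000040147, chromosome X, 16575521 to 16683605) lies beside Maoa and encodes monoamine oxidase B, which prefers phenylethylamine. Its libraries held 30, 31 and 19 reads in combination, 27, 37 and 24 in swimming, 17, 12 and 10 in curcumin and 14, 12 and 18 in control. In CPM every combination and swimming library lay above every curcumin and control library. The log2 fold change against control was 0.90 ± 0.36 in combination (adjusted p = 0.139 by edgeR), 1.13 ± 0.36 in swimming (0.21) and -0.09 ± 0.38 in curcumin (0.947).

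Against curcumin, Maob stood at 0.99 ± 0.37 in combination (adjusted p = 0.188 by edgeR) and at 1.22 ± 0.37 in swimming (0.094). None of these comparisons passed, and the test of any difference among the 4 groups gave adjusted p = 0.081. Groups without overlap were common among all tested genes: 16.3% were higher without overlap in combination against control, 5.83% in swimming against control, 18.6% in combination against curcumin, 20.4% in combination against swimming and 15.5% in swimming against curcumin. The 2 oxidases differed in level, with Maoa at 11.9 FPKM in combination, 14.1 in swimming, 12.3 in curcumin and 14.8 in control, and Maob at 0.58, 0.672, 0.30 and 0.315 FPKM in that order of groups.

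Slc22a3 (ENSMUSG00000023828, chromosome 17, 12637847 to 12726591) encodes an organic cation transporter that clears noradrenaline into cells other than neurons. It had 10, 5 and 0 reads in combination libraries 1, 2 and 3, and 0 reads in all 9 other libraries. The 15 reads of the combination were 5.09-fold higher than control when the control sum is set at 3 reads. That value takes the 15 reads as exact and is no lower limit. Combination 3 had 0 reads, so the groups overlapped and the value rests on 2 libraries. The gene did not reach the count filter and was not tested. In the table it overlaps Plg, the plasminogen gene on the opposite strand, which had 5 reads in combination, 0 in swimming, 1 in curcumin and 1 in control. The strand setting of the counting is not stated, so how reads in the stretch shared by Slc22a3 and Plg were assigned is not known.

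Of the 5 members other than Slc6a2, 4 passed the count filter (all but Slc22a3), and edgeR called 0 of the 4 in each of the 6 pairwise comparisons, in the interaction and in the test of any difference. Unadjusted p was under 0.05 for 3 of the 4 in combination against control, for 1 in swimming against control and for 1 in curcumin against control, beside 26.6%, 13% and 10.9% of all tested genes in that order of comparisons. The threshold for a call was an adjusted p of 0.05, over 13638 tested genes. The share of all tested genes called was 4.86% in combination against control, 0.308% in swimming against control and 0% in curcumin against control (edgeR, with 1490 genes at unadjusted p under 0.05 and 75 called by DESeq2). It was 0.851% in combination against curcumin, 6.66% in combination against swimming and 1.78% in swimming against curcumin. The interaction called 0.249% and any difference 5.64%. With shares this low, 0 of 4 is also near what all genes gave. DESeq2 called 1 of the 4 members in combination against control (Adra2a) and 2 in any difference (Adra2a and Maob), where it called 1656 and 2664 of all genes.

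The rest of the noradrenaline pathway was read from a list of 28 genes for synthesis and storage, transporters, receptors and catabolism, with 27 besides Slc6a2. Of those 27, 13 passed the count filter, and 1 was called in 1 comparison. Adra1b, the alpha-1B receptor, which signals through calcium, was lower in combination than in swimming. Its libraries held 11, 8 and 5 reads in combination and 31, 25 and 41 in swimming, with 21, 9 and 20 in curcumin and 20, 20 and 40 in control. Combination and swimming did not overlap, and 3.15% of all tested genes were called lower in that comparison, while 20.2% were lower without overlap. The log2 fold change was -2.08 ± 0.46 (adjusted p = 0.0239 by edgeR, n = 3 each). The call was lost without swimming 1 or swimming 3 and without each combination library in turn, with adjusted p of 0.0079 to 0.101 over the 12 libraries left out.

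Against control, Adra1b in combination stood just outside the threshold (-1.67 ± 0.46, adjusted p = 0.0552 by edgeR). In CPM, Adra1b and Adrb1 lay lower in every combination library than in every swimming library, and Adra2a lay higher. For Adrb1 the closest combination and swimming libraries had the same read count. Without overlap in that comparison, 20.2% of all tested genes were lower and 20.4% higher.

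**Figure D3:**
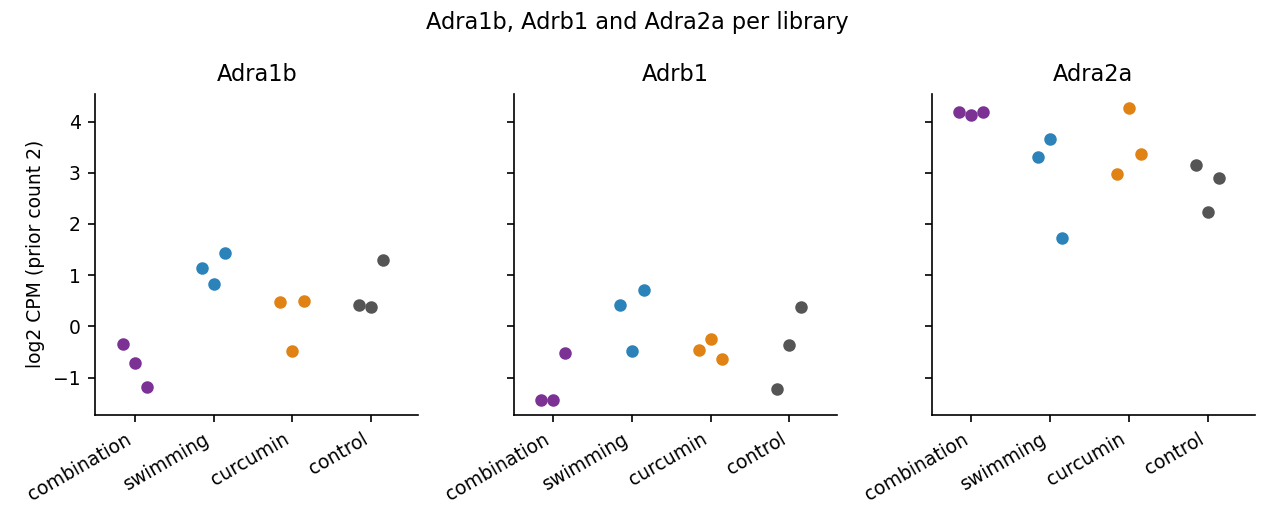
The receptor genes Adra1b, Adrb1 and Adra2a, as log2 CPM (prior count 2) in each library (points), on a shared axis. In Adra1b and Adrb1 the combination libraries lie below all swimming libraries, and in Adra2a above them. The closest Adrb1 libraries of these groups have the same read count.

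Synthesis genes were nearly silent: Ddc, Dbh and Pnmt had at most 5 reads in any library, and Th had 0. Slc18a2, the vesicular monoamine transporter of nerve endings, mast cells and platelets, stood at 6.90, 7.08 and 6.13 CPM in combination, 4.22, 3.30 and 4.07 in swimming, 5.60, 4.57 and 5.52 in curcumin and 5.75, 2.96 and 5.77 in control. Combination lay above every other library, and 16.3% of all tested genes were higher without overlap in combination against control, 18.6% against curcumin and 20.4% against swimming. Its change against swimming was 0.79 ± 0.25 (adjusted p = 0.071 by edgeR), and it did not pass in any comparison. Among the other transporters, Slc22a2 had 0 reads throughout, and 0 of the 5 listed besides Slc6a2 reached the filter.

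All 7 listed enzymes of breakdown passed the filter, and 0 of 7 was called in any comparison. Aldh2, which oxidises the aldehyde made by monoamine oxidase, averaged 285 ± 6.54 CPM in combination, 360 ± 15.3 in swimming, 328 ± 8.49 in curcumin and 339 ± 65.9 in control. Its libraries were lower without overlap in combination than in swimming and in curcumin, at -0.34 ± 0.11 (adjusted p = 0.0828 by edgeR) and -0.20 ± 0.11 (0.362), where 20.2% and 18.5% of all tested genes were lower without overlap. Akr1a1, an aldehyde reductase, stood at -0.31 ± 0.10 in combination against control (adjusted p = 0.0921 by edgeR). Without control 2, combination against swimming called Slc18a2, Akr1a1 and Aldh2 beside Adra1b, with 2697 genes called in all, and any difference called Slc18a2, Aldh2 and Adra1b, with 2560 in all. Without control 1, 4 pathway genes were called in combination against control, Akr1a1, Aldh2 and Adra1b among them, but calls over all genes also numbered 2182.

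Downstream of the receptors, 0 of 23 signalling genes (among them G proteins, adenylyl cyclases, protein kinase A subunits, receptor kinases, arrestins and phosphodiesterases) was called against control in any treated group. Their median log2 fold change was -0.02 in combination, -0.04 in swimming and 0.01 in curcumin against control, beside -0.02, -0.01 and 0.00 over all tested genes. In combination against swimming, where 3.5% of all genes were called higher, 2 of the 23 were: Rapgef4, a cyclic AMP-activated exchange factor (1.35 ± 0.24, adjusted p = 0.0132 by edgeR), and Adcy4, an adenylyl cyclase (1.22 ± 0.29, adjusted p = 0.0286). Rapgef4 averaged 7.13 ± 0.89 CPM in combination and 2.80 ± 0.248 in swimming. Adcy4 averaged 10.1 ± 2.65 CPM in combination and 4.35 ± 1.96 in swimming. Adcy4 is prominent in endothelium, and 8 endothelial markers summed to 421–486 CPM in combination and 146–224 in swimming; their part in these calls was not tested. Both calls were lost without each combination library and without swimming 1, and that of Adcy4 also without swimming 3.

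Of 12 cyclic AMP response genes, 11 passed the filter. In combination against control 2 were called higher and 1 lower, where 2.43% of all tested genes were called in each direction. The list was chosen with earlier results of these data known, so these shares are no test of it. Nr4a1, an immediate early nuclear receptor, averaged 56.9 ± 4.86 CPM in combination and 28.7 ± 5.29 in control (0.99 ± 0.15, adjusted p = 0.00945 by edgeR). Fosb, an AP-1 subunit, averaged 65.4 ± 5.44 CPM in combination and 18.2 ± 5.25 in control (1.85 ± 0.31, adjusted p = 0.0186 by edgeR). Bdnf, a neurotrophin, averaged 11.3 ± 1.03 CPM in combination and 25.6 ± 3.65 in control (-1.18 ± 0.21, adjusted p = 0.0167 by edgeR). Swimming against control called Per1 alone higher, beside 0.154% of all genes (1.75 ± 0.30, adjusted p = 0.0437 by edgeR), and curcumin against control called 0, with 1 at unadjusted p under 0.05.

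Calls among the response genes went in both directions. Their median log2 fold change against control was 0.02 in combination, 0.47 in swimming and -0.31 in curcumin. Combination against swimming called Nr4a1 higher and Per1, Sik1 and Bdnf lower, and swimming against curcumin called Per1 (2.18 ± 0.31) and Sik1 (0.93 ± 0.16) higher, beside 0.88% of all genes. Sik1 is a cyclic AMP-induced kinase. Of the calls in combination against swimming, those of Nr4a1 and Per1 were each lost without 5 of the 12 libraries, that of Sik1 without 6 and that of Bdnf without 8. Per1 and Sik1 in swimming against curcumin were each lost without 3, namely swimming 1, curcumin 2 and curcumin 3. Combination against curcumin called Nr4a1 (1.29 ± 0.15, adjusted p = 0.00391 by edgeR) and Fosb (1.89 ± 0.31, adjusted p = 0.0267) higher, beside 0.359% of all genes. The Nr4a1 call against curcumin held without each of the 12 libraries in turn, and that of Fosb was lost without each of the 6 combination and curcumin libraries. Against control, Nr4a1 was lost without combination 2 or 3, Bdnf without each combination library, Fosb without each of those or control 2, and Per1 in swimming without 9 of the 12 libraries. That Per1 call was also lost with no filter on low counts (adjusted p = 0.0809 by edgeR) and with only swimming and control fitted (0.521).

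**Figure D4:**
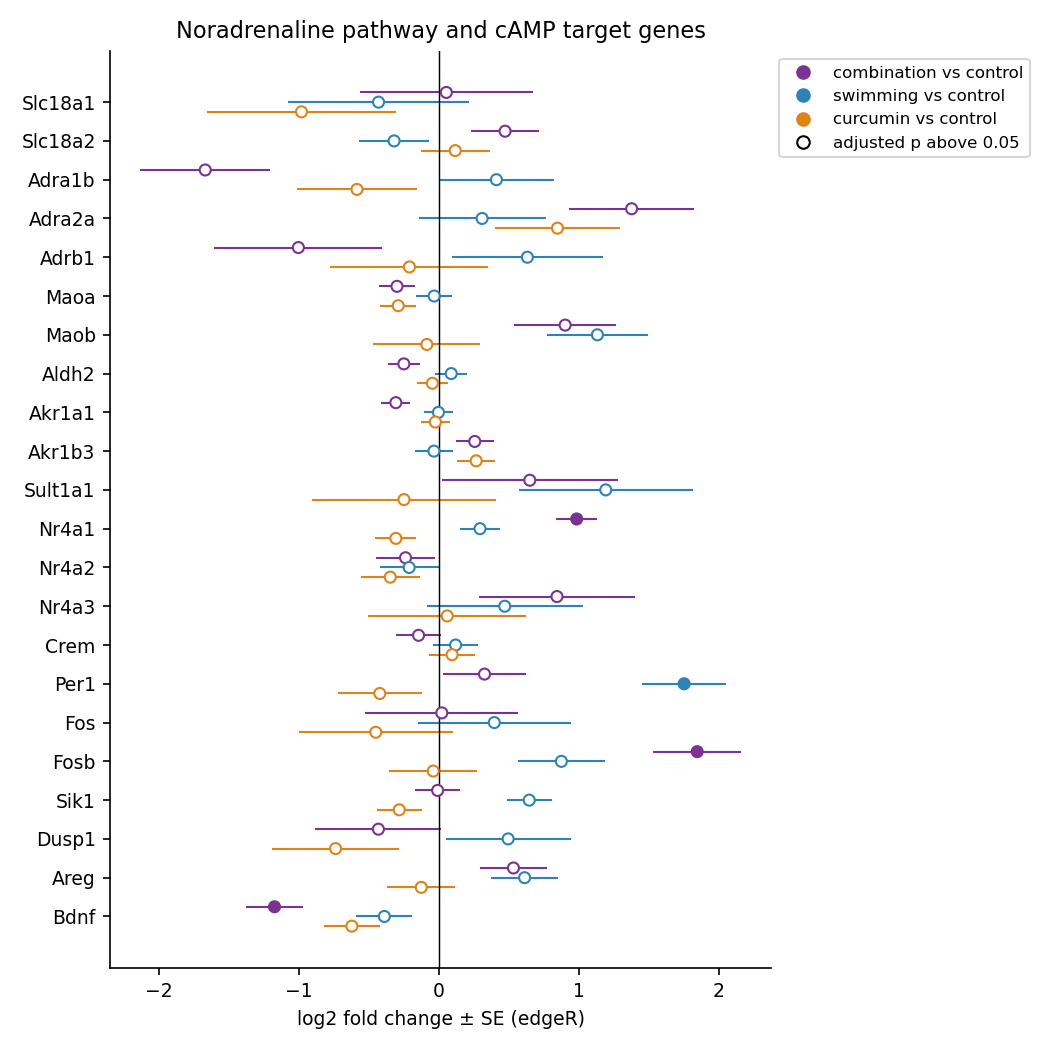
Log2 fold change ± SE against control for 11 noradrenaline pathway genes and 11 cyclic AMP response genes that passed the filter. Filled points are called at adjusted p of 0.05 or below: Nr4a1, Fosb and Bdnf in combination and Per1 in swimming. None of the pathway genes shown is filled.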

How the data were processed

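Total RNA of tumours was sequenced in 12 libraries, grouped by sample title. The deposited table holds read counts and FPKM per gene. Per the labels' protocols, the authors mapped trimmed reads with HISAT2 2.0.5 (genome mm9) and used HTSeq 0.9.1 for gene counts; the submitters' processing notes list cutadapt, TopHat2, HISAT2, DESeq 1.30.0 and GRCm39, so the build is stated in 2 ways, and coordinates are given as the table holds them. The deposited FPKM equalled count per length and library total for 184877 of 184877 values above 0 (relative tolerance 1e-05), so FPKM served only to compare levels between genes. Strand setting and treatment of reads shared by copies are not given in the sources used here.

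Counts were filtered with filterByExpr (minimum count 10, minimum total 15), leaving 13638 genes, TMM-scaled, and modelled with the robust quasi-likelihood test of edgeR 4.0.16 (R 4.3.3) on all 12 libraries, with Benjamini-Hochberg adjustment over all tested genes. Log2 CPM used a prior count of 2. The ± after a log2 fold change is its SE, derived from the test statistic of the fit. Ratios of summed counts carry exact conditional 95% intervals. Folds against a group at 0 set its sum at 3 counts. The pipeline was tested on simulated data. Some listed genes are counted but not reported here by name. Members and lists were chosen with earlier results of these data known. Named genes are the 6 members, pathway list genes called or named for their role, and the 8 most and 4 least correlated genes. Alternatives were DESeq2 1.42.0, RLE scaling, other filters, smaller fits, a replicate block, summed combination libraries and leaving out libraries.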

Additional observations from a re-analysis of the deposited data

How the results depend on the processing

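Slc6a2 has no value with a mean count of at least 50, nor in combination against swimming with only the groups compared, since the filters remove it. Leaving out each library in turn gave log2 values of -9.09 to -5.93 in combination against control, -3.95 to -3.31 in swimming against control, -2.27 to -1.87 in curcumin against control, -7.06 to -3.90 in combination against curcumin, -5.42 to -2.26 in combination against swimming and -1.92 to -1.28 in swimming against curcumin. Without combination 1 that group is at 0 reads and its fitted value is no bound.

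Members other than Slc6a2, with 0 called in each comparison, numbered 1 in combination against control with DESeq2 and with only the groups compared, and 0 to 1 with each library left out (1 without swimming 3). DESeq2 gave 2 in any difference, and leaving out control 2 and swimming 2 together gave 1 in combination against swimming. Among the 27 pathway genes, combination against control (0 called) gave 2 with DESeq2, 1 with only the groups compared, 1 without control 2 and swimming 2, and 0 to 4 with each library left out. Combination against swimming (1 called) gave 4 with DESeq2, 0 with a mean count of at least 50, which removes Adra1b, 4 with only the groups compared, 4 without control 2 and swimming 2, 0 with the combination libraries summed, and 0 to 4 with each library left out. Any difference (0 called) gave 3 with DESeq2, 3 without control 2 and swimming 2, and 0 to 3 with each library left out. Combination against curcumin gave 2 with only the groups compared. Swimming against control, swimming against curcumin and the interaction each gave 1 without control 2 and swimming 2, and swimming against curcumin gave 0 to 1 with each library left out. Except where stated, the cause was not tested.

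Signs turned for uncalled values: Adra2a in swimming against control (-0.09 without swimming 2 to 0.70 without swimming 3, and -0.31 without control 2 and swimming 2), Maoa in swimming against control (-0.13 to 0.14 with each library left out, 0.14 without control 2, and 0.17 without both), Adrb1 in curcumin against control (-0.57 to 0.35, positive without control 3), Maob in the same comparison (-0.28 to 0.07, with 0.06 without curcumin 3 and 0.07 without control 3) and Maoa in combination against curcumin (0.00 with DESeq2 and RLE scaling, and -0.06 to 0.07 with each library left out: 0.03 without curcumin 1, 0.01 without curcumin 3, 0.07 without combination 1).

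Over all genes, calls in combination against control were 663, against 1656 with DESeq2, 132 with only the groups compared, 220 with a replicate block, 0 with the combination libraries summed and 4 to 2182 with each library left out. Swimming against control had 42, against 316 with DESeq2, 0 with only the groups compared, 4 with the block, 1055 without control 2 and swimming 2, and 0 to 603 with each library left out. Combination against swimming had 908, against 1886 with DESeq2, 2707 with only the groups compared, 3144 without control 2 and swimming 2, and 31 to 2697 with each library left out. Combination against curcumin had 116, against 2121 with only the groups compared, and any difference 769, against 2664 with DESeq2, 3369 without control 2 and swimming 2 and 28 to 2560 with each library left out. Deviations of same-numbered libraries correlated at -0.25 to 0.16, which at 3 a group cannot exclude pairing. With the replicate block, Slc6a2 stood at -6.49 in combination, -3.72 in swimming and -2.06 in curcumin against control, and Adra1b kept its call (adjusted p = 0.0362 by edgeR), while Per1 (swimming against control), Fosb (combination against curcumin) and Bdnf (combination against swimming) lost theirs.

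Adrb1, Maob and Adra1b rest on 4 to 41 reads a library, and Slc6a2 in the treated groups on 0 to 21, which limits their order.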

Other observations

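Ngfr, the low-affinity neurotrophin receptor, held 32.1, 30.6 and 36.1 CPM in combination libraries, 11.2, 10.1 and 11.7 in swimming, 29.8, 15.5 and 22.2 in curcumin and 15.3, 8.28 and 19.7 in control. The combination libraries were the highest of the 12, and edgeR called Ngfr higher in combination than in control and than in swimming, and in the test of any difference, beside 2.43%, 3.5% and 5.64% of all tested genes. Whether these Ngfr calls hold with single libraries left out is not reported here. Over all genes, calls in combination against control fell from 663 to 20, 10 and 4 without combination 1, 2 and 3 in turn. The summed level of 7 Schwann cell markers was 85.3–88.9 CPM in combination, 67.9–70.8 in swimming, 61.2–70.3 in curcumin and 70.6–86.9 in control. Mast cell markers, which matter here because mast cells store monoamines through Slc18a2, summed over 8 genes to 17.2–19.7 CPM in combination, 25.8–32.0 in swimming, 19.9–41.2 in curcumin and 15.4–48.8 in control. The 48.8 CPM was control 2, with 15.4 and 17.5 in the other control libraries. Most reads of this sum were Kit and Hdc. In the same order of groups, Cpa3 had 15, 32, 79 and 28 reads and Mcpt4 had 14, 22, 95 and 17. Tpsb2 had 15, 47, 164 and 43 reads and Cma1 had 12, 22, 36 and 12, so all of these were highest in curcumin. A single library held 104 of the Tpsb2 reads.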
